A study of Mus musculus with 27 samples.

Results

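The subunits of respiratory complex I were followed at the RNA level in the infarcted mouse heart, in the genes of both genomes that encode them. Members were the genes named Nduf followed by a, b, c, s or v and a digit, and ND1 to ND6 with ND4L. They numbered 45 of the 27304 genes measured, 38 in nuclear DNA and 7 in mitochondrial DNA. Assembly factors were left out, and Ndufab1, the acyl carrier subunit, is not reached by this naming. All 45 passed the filter on low counts in every comparison, and no member had fewer than 93 counts in any library.

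All hearts came from male ApoE-/- mice of strain C57BL/6J that ate a western type diet, and were taken 7 days after myocardial infarction. No age is given in the labels. The chronic kidney disease (CKD) groups ate that diet with adenine, which damages the kidney tubules, after 4 weeks without it. The adenine share was 0.3% for 10 days and then 0.15% for 11 days, of which 4 preceded the infarction. Control mice ate the western type diet throughout and carried the same ApoE-/- genotype and the same infarction, so no group was free of either. Bulk RNA sequencing covered 27 libraries of 14 mice. Remote myocardium was sampled in 6 control and 8 CKD mice and infarct tissue in 6 control and 7 CKD mice, with both regions from 13 hearts. Each library is 1 region of 1 mouse, and totals ran from 14255456 to 42566498 counts.

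3 libraries stood apart from their groups. The infarct library of CKD mouse 9179 resembled remote tissue, with contractile genes high and the collagen gene Col1a1 at 77.6 CPM (CPM are counts scaled to a common library size with TMM factors), and the infarct library of CKD mouse 9172 also had high contractile genes. The remote library of control mouse 9180 had Col1a1 at 4014 CPM and the lowest contractile share of its group. The infarct library of control mouse 9171 was extreme too, with the lowest contractile share of all libraries (0.694%). It is not counted among the 3 and was left out only by itself. For the remote sample of mouse 9179 the title names CKD and the treatment label control. It was analysed as CKD, like the infarct of that mouse. Results that rest on these libraries are given with and without them.

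Complex I is the largest enzyme of the respiratory chain. It takes electrons from NADH, passes them through a chain of iron-sulfur clusters to ubiquinone, and pumps protons across the inner mitochondrial membrane. Its catalytic core is built from both genomes: the matrix arm, which oxidises NADH and reduces quinone, has nuclear-encoded core subunits, while the membrane arm that moves the protons is made around ND1 to ND6 and ND4L. Accessory subunits, all nuclear, surround the core. Cardiomyocytes are packed with mitochondria, and the heart relies on oxidative metabolism for its contraction.

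Promoters of the nuclear members were read for short motifs of factors known to drive respiratory genes. The windows, from 250 bases before to 50 after the start site, are from RefSeq on GRCm38.p6 and were found for 32 of the 38 nuclear members. They were searched on both strands for CGCATGCG (the NRF1 core), CCGGAAG (an ETS core, of the kind GABP binds) and AAGATGG (the YY1 core), and no window of a member held more than 1 of the 3 motifs. The NRF1 core was in 2 of the 32 (6.25%, against 2.07% of all genes with a promoter in the table), the ETS core in 4 (12.5% against 9.93%) and the YY1 core in 7 (21.9% against 7.28%). Among genes tested here these shares were 3.85%, 18.2% and 7.91%. All 7 YY1 matches, in Ndufa3, Ndufa9, Ndufb8, Ndufc1, Ndufs4, Ndufs6 and Ndufs7, read in the direction of transcription and began 22 to 38 bases after the start site. A match so placed occurred in 1.54% of all genes and 2.51% of tested genes. That placing was singled out after the matches were seen, and its letters include ATGG, which also occurs at start codons. A match is a stretch of letters and no evidence of binding, and 19 of the 32 windows held none of these. 5 windows are printed 5′ to 3′ on the coding strand, with matches in capitals, because they carry each of the motifs and, apart from that of Ndufa11, belong to members described below.
Ndufs3 (chr2:90904672-90904971, - strand): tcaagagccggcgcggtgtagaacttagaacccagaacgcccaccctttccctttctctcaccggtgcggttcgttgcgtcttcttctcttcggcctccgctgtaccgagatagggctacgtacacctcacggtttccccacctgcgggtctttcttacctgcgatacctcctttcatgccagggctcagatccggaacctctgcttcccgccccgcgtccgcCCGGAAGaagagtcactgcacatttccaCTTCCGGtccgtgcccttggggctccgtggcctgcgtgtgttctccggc
Ndufs8 (chr19:3912725-3913024, - strand): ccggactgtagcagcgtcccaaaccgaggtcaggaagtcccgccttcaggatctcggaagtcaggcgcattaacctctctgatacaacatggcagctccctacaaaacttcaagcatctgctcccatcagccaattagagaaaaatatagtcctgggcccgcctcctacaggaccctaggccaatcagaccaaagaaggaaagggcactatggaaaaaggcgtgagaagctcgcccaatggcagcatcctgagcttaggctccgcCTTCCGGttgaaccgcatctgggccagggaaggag
Ndufs7 (chr10:80249199-80249498, + strand): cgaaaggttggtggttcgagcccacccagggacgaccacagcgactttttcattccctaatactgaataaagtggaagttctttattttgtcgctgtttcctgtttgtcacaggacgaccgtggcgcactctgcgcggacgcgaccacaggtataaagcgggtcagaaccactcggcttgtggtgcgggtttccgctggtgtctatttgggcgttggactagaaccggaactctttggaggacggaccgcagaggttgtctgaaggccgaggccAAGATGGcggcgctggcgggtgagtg
Ndufa9 (chr6:126849095-126849394, - strand): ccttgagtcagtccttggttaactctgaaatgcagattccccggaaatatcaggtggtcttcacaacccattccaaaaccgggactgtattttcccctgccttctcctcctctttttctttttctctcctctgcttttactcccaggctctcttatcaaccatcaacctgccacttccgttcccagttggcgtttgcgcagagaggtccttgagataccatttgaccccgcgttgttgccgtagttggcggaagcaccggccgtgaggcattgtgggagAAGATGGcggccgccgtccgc
Ndufa11 (chr17:56717512-56717811, + strand): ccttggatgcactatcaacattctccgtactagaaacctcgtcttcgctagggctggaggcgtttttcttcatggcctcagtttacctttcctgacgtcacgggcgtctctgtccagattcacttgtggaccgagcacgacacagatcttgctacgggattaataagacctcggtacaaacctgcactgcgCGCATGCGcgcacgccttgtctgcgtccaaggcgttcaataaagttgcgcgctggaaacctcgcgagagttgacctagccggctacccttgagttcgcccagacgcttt

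Control infarcts held far less complex I RNA of either genome than remote myocardium, and CKD infarcts lay between. The 7 ND genes took 2.67 to 4.32% of all counts in the libraries of control remote tissue and 3.02 to 4.55% in CKD remote tissue. They took 0.319 to 1.52% in control infarcts and 1.29 to 4.25% in CKD infarcts. Group means ± SD were 3.72 ± 0.677% (n = 6), 3.92 ± 0.495% (n = 8), 1.03 ± 0.475% (n = 6) and 2.47 ± 1.12% (n = 7) in that order. Every control infarct was below every remote library, whereas the CKD infarcts overlapped all other groups. The 38 nuclear members took 1.26 to 1.80% in control remote tissue, 1.64 to 1.99% in CKD remote tissue, 0.267 to 0.752% in control infarcts and 0.774 to 2.18% in CKD infarcts. For them the 2 infarct groups did not overlap, though the highest control and the lowest CKD library were close. Without the infarct libraries of 9172 and 9179 the CKD infarcts reached 2.50% for the ND genes and 1.24% for the nuclear members.

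**Figure D1:**
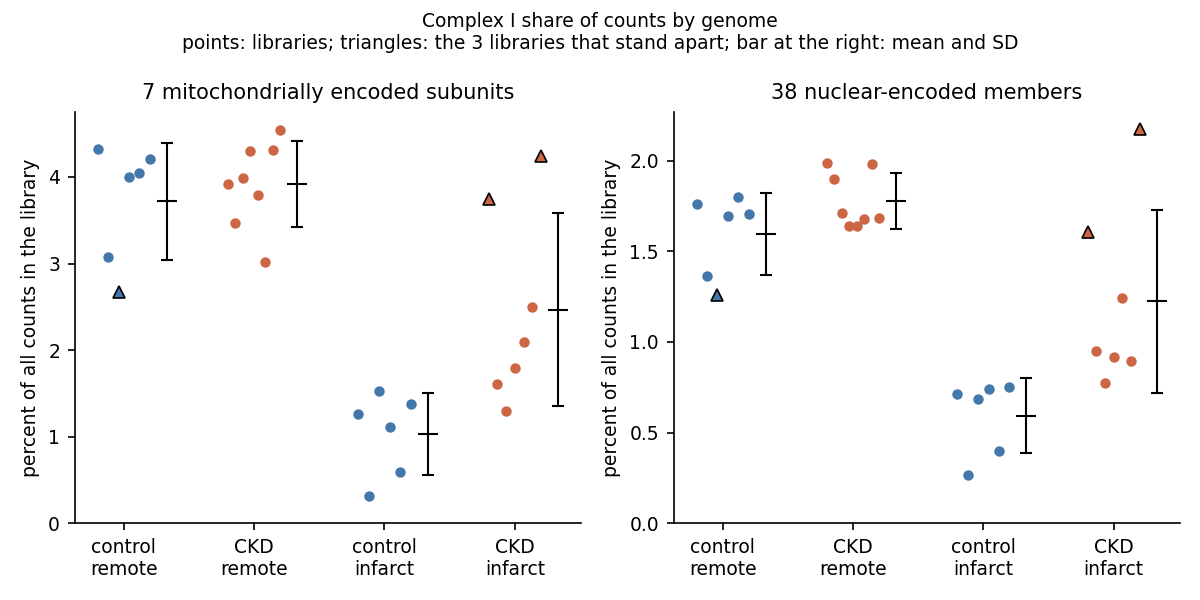
Percent of all counts in each library that fell on the 7 mitochondrially encoded subunits (left) and on the 38 nuclear members (right), by diet and region, with the mean and SD beside the points and triangles for remote 9180, infarct 9172 and infarct 9179. Control infarcts lie below all remote libraries in both panels, and the 2 highest CKD infarcts are the triangles.

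Within single hearts the ND share was lower in infarct than in remote tissue in 6 of 6 control and 7 of 7 CKD mice. The log2 ratio of infarct to remote share averaged -2.02 ± 0.88 (SD) in control and -0.80 ± 0.62 in CKD mice for the ND genes, and -1.51 ± 0.60 and -0.61 ± 0.53 for the nuclear members. The nuclear share was lower in the infarct of 6 of 6 control and 6 of 7 CKD hearts. The exception was mouse 9179. The ND log2 ratios of CKD mice 9172 and 9179 were -0.068 and -0.099, while the other CKD hearts ran from -1.73 to -0.53.

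Cardiomyocyte contractile genes moved in parallel. Their 12 listed genes, among them Myh6 and Tnnt2, took 5.98 to 9.63% of counts in control remote tissue, 8.18 to 10.4% in CKD remote tissue, 0.694 to 4.30% in control infarcts and 3.73 to 9.93% in CKD infarcts. Per 100 contractile counts there were 19.1 ± 2.11 nuclear member counts in control remote tissue, 18.6 ± 1.89 in CKD remote tissue, 22.3 ± 8.06 in control infarcts and 18.2 ± 2.98 in CKD infarcts (mean ± SD). The ND counts per 100 contractile counts were 44.2 ± 4.86, 41.1 ± 7.40, 35.5 ± 6.95 and 36.3 ± 7.57. On this footing the ranges of all 4 groups overlapped for both genomes. In bulk tissue, fewer cardiomyocytes and less RNA per cardiomyocyte cannot be told apart. The 8 activated fibroblast markers summed to 748 to 14785 CPM in control remote tissue, 555 to 1469.7 in CKD remote tissue, 28438 to 60242 in control infarcts and 366 to 35254 in CKD infarcts. The 8 macrophage markers summed to 426 to 1711, 452 to 907, 2062 to 4899 and 530.3 to 7153 CPM. No marker of these lists was at 0 in a group, and the part of these cells in the complex I results was not tested. The 5 listed markers of brown fat, another tissue rich in mitochondria, summed to 565 to 1379.9 CPM in control remote tissue, 895 to 1409 in CKD remote tissue, 19.6 to 287 in control infarcts and 263 to 1469 in CKD infarcts. Among them Ucp1, which defines that tissue, was at or below 0.202 CPM and Elovl3 at or below 0.119 CPM in every library. Cidea, a lipid droplet gene of the same list, ran from 45.2 to 60.7 CPM in control remote tissue and from 3.88 to 21.05 in control infarcts. The other listed genes, Cox7a1 and Ppargc1b, hold most of the sum in remote tissue. They also stand in the lists of respiratory subunits and of nuclear regulators used below, so the sum does not measure brown fat alone.

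The balance of the genomes shifted less than their levels. The log2 ratio of ND counts to nuclear member counts was 1.21 ± 0.083 in control remote tissue, 1.13 ± 0.22 in CKD remote tissue, 0.71 ± 0.31 in control infarcts and 0.98 ± 0.28 in CKD infarcts (mean ± SD). Control infarcts ran from 0.26 (mouse 9171) to 1.15 (mouse 9180), and CKD infarcts from 0.74 to 1.48. Within hearts the ratio changed by -0.50 ± 0.33 from remote to infarct tissue in control mice, below 0 in 5 of 6. In CKD mice it changed by -0.19 ± 0.38 and was below 0 in 5 of 7. The ranges of the diets overlapped in each region, and no test was made on this ratio, since the members were chosen with earlier results in view. The ND genes kept 20.7 ± 0.445%, 20.98 ± 1.50%, 20.8 ± 1.64% and 20.6 ± 1.41% of the counts on all 13 mitochondrially encoded protein genes, in the same order of groups.

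**Figure D2:**
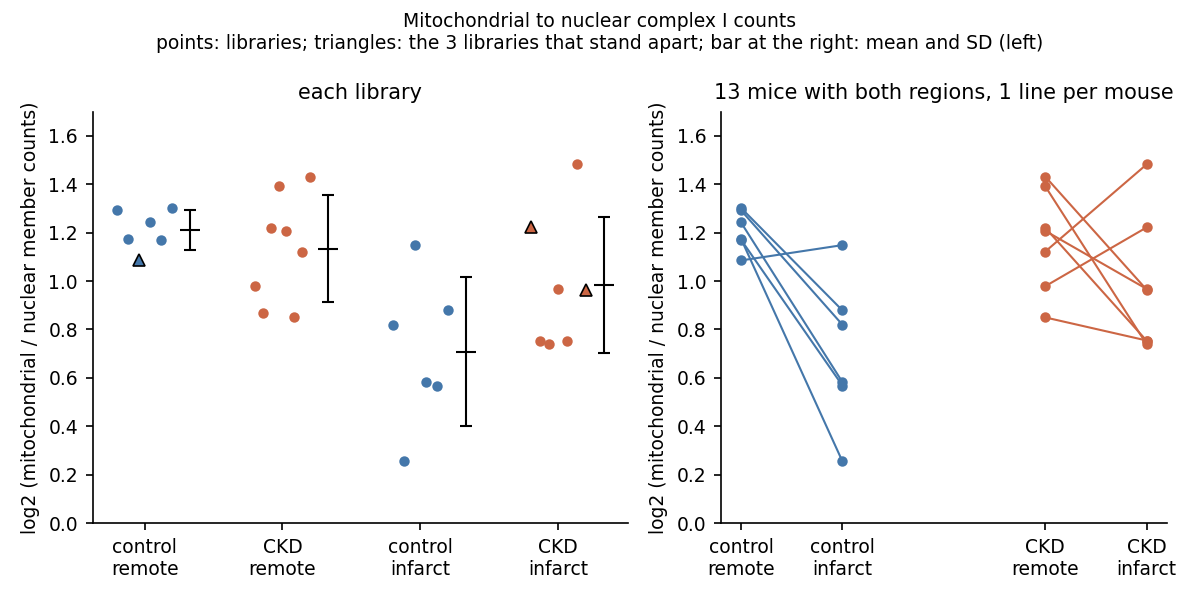
Log2 ratio of summed ND counts to summed nuclear member counts, per library with group mean and SD (left; triangles mark the 3 libraries that stand apart) and joined between the regions of each of 13 mice (right). The lines of 5 of 6 control and 5 of 7 CKD mice fall from remote to infarct, and the others rise.

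Among the ND genes, the order of mean levels per kilobase was the same in all 4 groups. The genes are transcribed from the small circular genome as long precursors that are then cut apart. ND1, which forms part of the quinone tunnel, stood highest in control remote tissue with 14507 ± 3888 CPM per kilobase (mean ± SD). ND5 and ND4L, a proton channel subunit and a small membrane subunit, stood lowest with 2523 ± 638 and 2429.7 ± 774, which did not differ beyond their spread. ND3, ND4, ND6 and ND2 lay between, at 8828 ± 2954, 7893 ± 2055, 6152 ± 1848 and 4935 ± 1152, and the ranges of neighbours in this order overlapped, ND1 and ND3 included. All these genes were measured in the same libraries, so neither overlap nor spread across libraries tests their order. In control infarcts the order ran from ND1 at 2722 ± 1315 to ND5 at 551 ± 249 and ND4L at 551 ± 231. In CKD infarcts ND1 had 9197 ± 5972 and ND4L 1335 ± 528. ND1 alone made up 33.4% of ND counts in control remote tissue, 34.7% in CKD remote tissue, 31.9% in control infarcts and 34.3% in CKD infarcts. Lengths are those of GENCODE M21, and counts of neighbours that overlap can be split between them. ND4L and ND4 overlap by 7 bases, shown in capitals at the end of one and the start of the other on GRCm38, because reads there belong to both genes. ND6 lies on the opposite strand and overlaps the end of ND5. The labels state no strand for the library kit, so reads of ND6 and of RNA antisense to it cannot be told apart.
ND4L, last 30 bases (chrM:10144-10173, + strand): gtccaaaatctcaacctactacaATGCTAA
ND4, first 30 bases (chrM:10167-10196, + strand): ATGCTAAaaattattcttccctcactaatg

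In control mice, 44 of the 45 members were lower in infarct than in remote tissue. By edgeR's quasi-likelihood test, 37 of 38 nuclear members and 7 of 7 ND genes fell, where 33.2% of all 14770 genes tested were called lower and 30.7% higher. The median log2 fold change was -1.92 for the nuclear members, a 3.78-fold lower level, and -2.39 for the ND genes, 5.26-fold lower, against -0.010 over all genes. The ranges of the 2 groups of libraries did not overlap for these 37 and 7 members, which was so for 18.9% of all genes in this direction.

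ND6 had 1828 to 3942 (median 3705) CPM in control remote tissue and 129 to 983 (median 671) in control infarcts, a log2 fold change of -2.49 ± 0.45 (SE, edgeR adjusted p = 5.50e-05). ND1 had 8523 to 16975 (median 15808) CPM in remote tissue and 699 to 3843 (median 2985) in infarcts, and fell by 2.41 on the log2 scale (SE 0.40). Every infarct library was below every remote library for both genes. The antiporter-like proton channel subunits changed by -2.20 ± 0.34 (ND2), -2.39 ± 0.38 (ND4) and -2.19 ± 0.33 (ND5), and the small subunits ND3 and ND4L by -2.42 ± 0.47 and -2.14 ± 0.30. In the electron input module, Ndufv1, which binds the flavin that accepts electrons from NADH, had 488 to 1148 (median 987) CPM in remote tissue and 80.1 to 299 (median 267) in infarcts (-2.06 ± 0.31). Its iron-sulfur partners Ndufv2 and Ndufs1 changed by -1.98 ± 0.29 and -1.84 ± 0.29. In the quinone module, Ndufs7, which carries the cluster next to quinone, had 443 to 821 (median 766) CPM in remote tissue and 60.5 to 213 (median 185) in infarcts (-2.17 ± 0.34). Its core neighbours Ndufs3 and Ndufs8 changed by -1.95 ± 0.28 and -1.88 ± 0.26. All 14 core subunits thus fell.

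The 29 accessory subunits all fell, with a median of -1.91 beside -1.95 for the 7 nuclear core subunits. By place in the enzyme the medians were -1.85 in the electron input module (10 members), -1.98 in the quinone module (6), -1.91 in the proximal membrane arm (9) and -1.94 in the distal membrane arm (11). Ndufs6, a zinc-binding subunit of the input module, and Ndufs7 had the most negative values of the nuclear members (-2.22 ± 0.39 and -2.17 ± 0.34). Ndufc2, a membrane arm subunit, had the smallest fall (-1.36 ± 0.21), with 141 to 226 (median 211) CPM in remote tissue and 48.2 to 92.8 (median 84.5) in infarcts. Ndufb6 and Ndufa9 had the smallest p-values (edgeR adjusted p = 9.95e-06 and 9.98e-06).

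In CKD mice the difference between the regions was smaller. By the same test, 26 nuclear members and 5 ND genes were lower in infarct than in remote tissue, where 20.2% of all genes were called lower and 24.7% higher. ND3 and ND6 were not called (-0.70 ± 0.40 and -0.90 ± 0.38). Medians were -0.75 for the nuclear members (1.68-fold lower) and -0.86 for the ND genes (1.82-fold lower), against -0.014 over all genes. All 7 nuclear core subunits fell, by 0.74 to 0.88 on the log2 scale, and 19 of 29 accessory subunits. Ndufs8, which carries iron-sulfur clusters of the quinone module, had the smallest p: 362 to 458 (median 377) CPM in CKD remote tissue and 143 to 383 (median 170.1) in CKD infarcts (-0.88 ± 0.23, edgeR adjusted p = 0.00384). Ndufa9, a quinone module accessory, and Ndufb8, of the distal arm, had the most negative values (-0.89 ± 0.24 and -0.89 ± 0.26). Ndufa9 and Ndufa10 were the only members whose infarct libraries all lay below the remote ones, which was so for 1.07% of all genes. At the other end stood Ndufa4l2, described with Ndufa4 below, and then Ndufa1 and Ndufa2, which gave -0.40 ± 0.28 and -0.44 ± 0.29 and did not pass.

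With mouse as a block over the 13 paired hearts, 36 nuclear members and 7 ND genes were lower in CKD infarcts, as were 24.2% of all genes, with medians of -0.92 and -1.11. Without the infarct libraries of 9172 and 9179, 37 and 7 were lower, as were 28.9% of all genes, with medians of -1.26 and -1.47. Without single CKD infarcts other than these the count of members fell to 13 (without 9175), 14 (9174), 15 (9178), 17 (9176) and 18 (9177). The share of all genes called lower fell too, to 13.2%, 13.7%, 13.9%, 17% and 17% in that order.

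**Figure D3:**
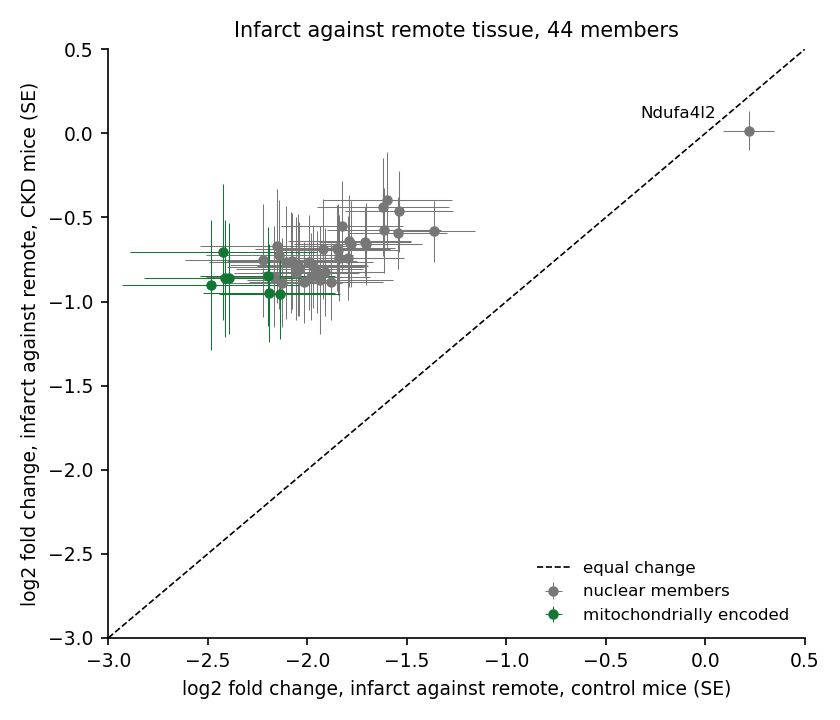
Log2 fold change of infarct against remote tissue for 44 of the 45 members in control mice (horizontal) and in CKD mice (vertical), with standard errors as bars and a dashed line of equal change. All members drawn but Ndufa4l2 lie above the line at negative values, and the ND genes (green) lie toward the left of the control axis.

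In infarct tissue, CKD mice had more complex I RNA than control mice. By edgeR's test 36 of 38 nuclear members and 7 of 7 ND genes were higher and 1, Ndufa4l2, was lower, where 13.1% of all 14358 genes tested were called higher and 7.14% lower. The median log2 fold change was 1.33 for the nuclear members, or 2.52-fold, and 1.56 for the ND genes, or 2.94-fold, against -0.017 over all genes. For 31 nuclear members and 1 ND gene, ND2, every CKD infarct was above every control infarct, as was so for 5.09% of all genes.

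These calls lay near the threshold, as the lowest edgeR adjusted p of any gene was 0.0345, and they changed when few libraries were left out. Over 13 fits without 1 library each, the nuclear median ran from 1.06 to 1.43. Without the infarct libraries of 9172 and 9179, 0 members passed (edgeR, lowest adjusted p = 0.0891, 43 at an unadjusted p below 0.05), as did 0 of all genes. The share of all genes at that unadjusted cutoff was not counted in this fit. The medians were then 0.82 and 0.95. Leaving out control mouse 9171, 9182 or 9183 or CKD mouse 9172 or 9177 alone also took the count to 0, as it did for all genes, with medians between 1.17 and 1.40 for the nuclear members. The number of called ND genes fell to 4 without control mouse 9170 and to 1 without CKD mouse 9179, where 11.2% and 6.88% of all genes were called higher. With the contractile score of each library as a covariate, 0 members passed (lowest edgeR adjusted p = 0.981) and the medians were 0.21 and 0.23. The score, a mean log2 CPM of the contractile genes, was itself 10.1 ± 1.22 in control and 11.7 ± 0.673 in CKD infarcts (mean ± SD). The share of all genes called in that fit is not given here.

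ND3 had 118 to 859.8 (median 693) CPM in control infarcts and 761 to 4993 (median 1424) in CKD infarcts, the highest fold change of the 45 (1.82 ± 0.55, edgeR adjusted p = 0.0391). Its ranges overlapped, as the lowest CKD library was below the highest control library. ND2 had 370 to 1698 (median 1282) CPM in control infarcts and 1761 to 5232 (median 2707) in CKD infarcts (1.45 ± 0.40), without overlap. The other ND genes gave 1.72 ± 0.49 (ND1), 1.72 ± 0.54 (ND6), 1.56 ± 0.46 (ND4), 1.39 ± 0.39 (ND5) and 1.24 ± 0.33 (ND4L).

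Among the nuclear core subunits, Ndufs7 had 60.5 to 213 (median 185) CPM in control infarcts and 242 to 1109 (median 314) in CKD infarcts (1.60 ± 0.41), and Ndufs8 had 45.2 to 119 (median 107) and 143 to 383 (median 170.1) (1.21 ± 0.31). The highest CKD library in both was that of mouse 9179. Other values were 1.38 ± 0.37 (Ndufv1), 1.35 ± 0.36 (Ndufv2), 1.23 ± 0.32 (Ndufs1) and 1.32 ± 0.34 (Ndufs3). The infarct groups overlapped for Ndufs1 and not for these other core subunits. Medians by place were 1.36 in the electron input module, 1.31 in the quinone module, 1.31 in the proximal and 1.38 in the distal membrane arm. All places were measured in the same libraries, so the standard errors of single genes do not measure these differences, which were not tested.

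Of the accessory subunits, Ndufb6 and Ndufa10 of the membrane arm had the smallest p-values. Ndufb6 had 31.8 to 81.6 (median 77.4) CPM in control infarcts and 101 to 242 (median 140) in CKD infarcts (1.18 ± 0.28, edgeR adjusted p = 0.0345), and Ndufa10 had 64.1 to 212 (median 202) and 287 to 743 (median 396) (1.42 ± 0.34). Ndufa5, which sits on the quinone module, and Ndufs6 had the highest nuclear values (1.74 ± 0.47 and 1.69 ± 0.47). In both, CKD mouse 9179 was highest, at 1134 and 1006 CPM. Ndufc2 had the smallest increase of the called members (0.94 ± 0.24). Ndufb2, of the distal arm, did not pass (1.09 ± 0.42, edgeR adjusted p = 0.0764). Ndufb1-ps, whose symbol marks it as a pseudogene although it is the mouse entry for Ndufb1 in this table, gave 1.12 ± 0.31, and reads shared with a copy would make that value uncertain.

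**Figure D4:**
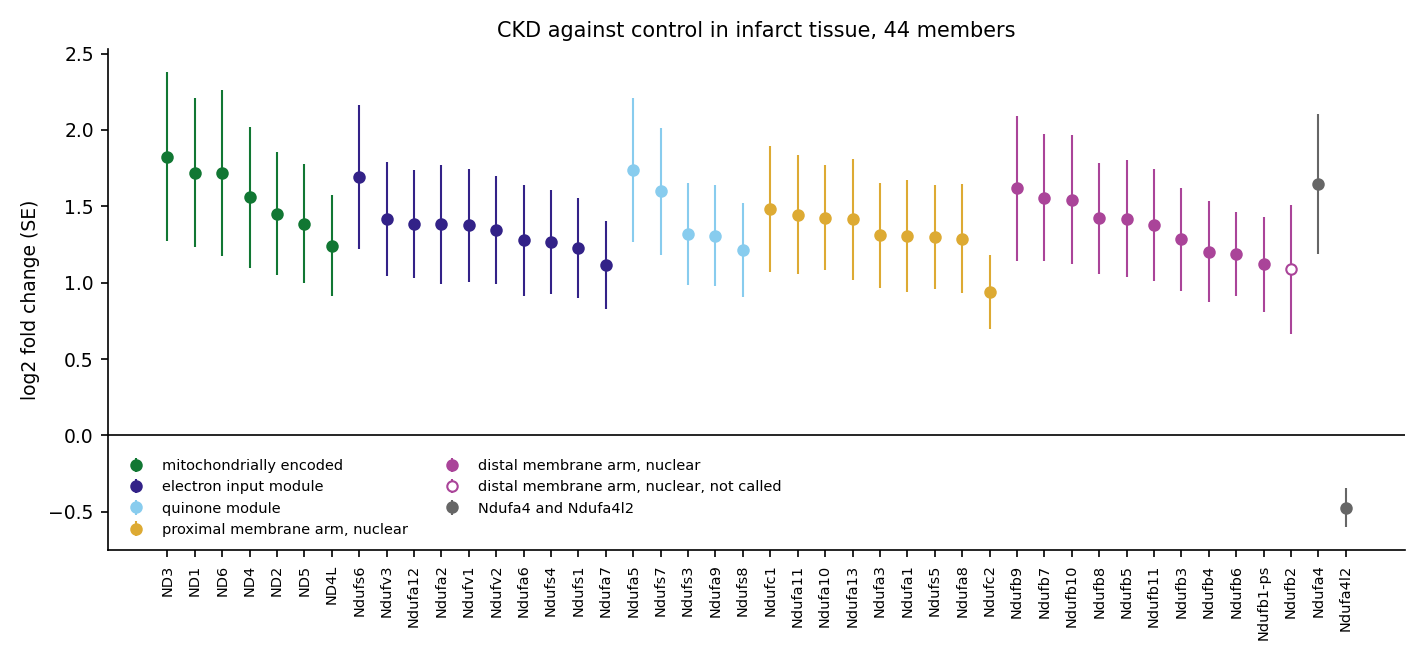
Log2 fold change of CKD against control in infarct tissue for 44 of the 45 members, with standard errors, in the order of genome and place in the enzyme. Filled points passed the edgeR test at an adjusted p below 0.05. Of these, 42 are filled above 0, Ndufb2 is open, and Ndufa4l2 is filled below 0.

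Ndufa4 and its paralogue Ndufa4l2 parted. Ndufa4 was first assigned to complex I and is now known as a subunit of cytochrome c oxidase. Ndufa4l2 is known as a target of the hypoxia-inducible factor HIF-1. Ndufa4 had 810.5 to 1365 (median 1305) CPM in control remote tissue, 1191 to 1739 (median 1310.2) in CKD remote tissue, 86.8 to 376 (median 322) in control infarcts and 401 to 2154 (median 528) in CKD infarcts. It fell in control infarcts (-2.14 ± 0.37) and was higher in CKD than control infarcts (1.65 ± 0.46, edgeR adjusted p = 0.0348), like the rest. Ndufa4l2 had 22.5 to 40.01 (median 32.2) CPM in control remote tissue, 23.8 to 33.4 (median 24.9) in CKD remote tissue, 32.03 to 42.2 (median 37.05) in control infarcts and 21.2 to 37.3 (median 27.1) in CKD infarcts. The 4 ranges overlapped. It did not pass between regions in control mice (0.22 ± 0.13, edgeR adjusted p = 0.138) or CKD mice (0.016 ± 0.12, adjusted p = 0.921). In infarct tissue it was lower in CKD than control mice (-0.47 ± 0.13, edgeR adjusted p = 0.0345). Its value ran from -0.57 to -0.42 when each of 13 libraries was left out, and 8 of these fits called it. Without 9172 and 9179 it was -0.46 (adjusted p = 0.0892), and with the contractile covariate -0.32 (adjusted p = 0.981). It was thus the one member that was neither lower in control infarcts nor higher in CKD infarcts.

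**Figure D5:**
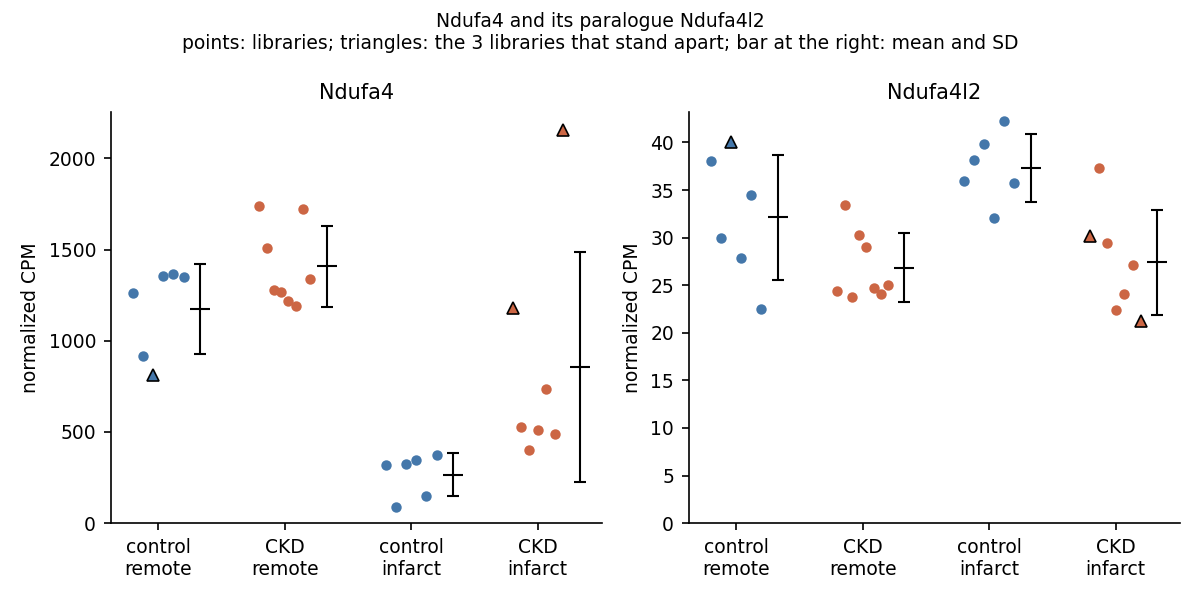
Normalized CPM of Ndufa4 (left) and Ndufa4l2 (right) in each library by diet and region, with group mean and SD and triangles for the 3 libraries that stand apart. Ndufa4 falls in control infarcts to between 86.8 and 376 CPM, and Ndufa4l2 stays between 21.2 and 42.2 CPM in all 27 libraries.

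In remote myocardium no member passed the test between the diets. Of 45 members 0 were called, where 0% of all 13902 genes were called higher and 0.0216% lower by edgeR. 3 members had an unadjusted edgeR p below 0.05, as did 1626 of all 13902 genes. DESeq2 and limma-voom also called 0 members, where DESeq2 called 0.266% of all genes higher and 0.432% lower. Values were above 0 for 44 of 45, with medians of 0.22 for the nuclear members and 0.14 for the ND genes, against -0.0049 over all genes. Ndufb10, a distal arm subunit, had the smallest p, with 470.2 to 918 (median 798) CPM in control and 841 to 1083 (median 906) in CKD mice (0.31 ± 0.13, edgeR adjusted p = 0.367). Ndufa10 was the one member without overlap, at 393 to 744 (median 689) and 749 to 823 (median 768) CPM (0.27 ± 0.11), which was so for 0.129% of all genes in this direction. Ndufs7 and Ndufb7 had the highest values (0.32 ± 0.15 and 0.32 ± 0.15) and Ndufa4l2 and Ndufb2 the lowest (-0.26 ± 0.12 and 0.052 ± 0.20). The ND genes lay between 0.058 (ND4) and 0.20 (ND1). Without the remote library of 9180 the medians were 0.13 and 0.043. With remote 9179 counted among the control libraries they were 0.20 and 0.046, with that library left out 0.23 and 0.11, and with the contractile covariate 0.016 and -0.088.

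Whether the difference between diets was itself larger in infarct than in remote tissue was tested as an interaction. By edgeR 0 of 45 members passed (adjusted p from 0.165 upward), where 0% of all 14770 genes were called higher and 0% lower. At an unadjusted p below 0.05 there were 44 members, and 2787 of all genes. DESeq2 called 34 nuclear members and 7 ND genes higher, where it called 3.87% of all genes higher and 0.19% lower, and limma-voom called 0 of either. Medians were 1.16 for the nuclear members and 1.53 for the ND genes, against 0.057 over all genes, and 0.63 and 0.88 without infarct 9172 and 9179. The lowest value was that of Ndufa4l2 (-0.20 ± 0.17) and the highest that of ND3 (1.72 ± 0.60), followed among nuclear members by Ndufa5 (1.48 ± 0.50).

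Assembly factors and the other respiratory genes moved the same way in infarct tissue. Of 17 assembly factors, which build the enzyme but are not part of it, 15 were higher in CKD than control infarcts and 0 lower (median 0.75). Among them were Dmac1 (0.51 ± 0.11), Ndufaf5 (0.84 ± 0.19) and Ndufaf7 (0.54 ± 0.13). Of all genes tested, 13.1% were called higher in CKD infarcts and 7.14% lower. In control mice all 17 were lower in infarct than in remote tissue (median -1.19), and in CKD mice 12 were (median -0.49). The share of all genes called lower was 33.2% in control and 20.2% in CKD mice. The other 6 mitochondrially encoded proteins, of complexes III to V, were all higher in CKD infarcts (median 1.57) and all lower in control infarcts than in remote tissue (median -2.33). The 32 nuclear subunits of complexes II to V found in the table gave 31 higher in CKD infarcts (median 1.41). The 12 contractile genes had a median of 1.50, with 6 higher.

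Of 26 genes of mitochondrial transcription and RNA handling, 11 were higher in CKD infarcts and 0 lower (median 0.48). They included Supv3l1, a helicase of the RNA decay machinery (0.84 ± 0.20), Polrmt, the mitochondrial RNA polymerase (0.57 ± 0.14), and Hsd17b10, part of mitochondrial RNase P (0.94 ± 0.24). In control mice 21 of the 26 were lower in infarct than in remote tissue (median -0.66), as were 33.2% of all genes. Of 14 nuclear regulators, 6 were higher in CKD infarcts and 0 lower (median 0.38). Their values were above 0 for 8 and below 0 for 6, with the lowest at -0.46. For both lists the share of all genes called higher there was 13.1%, and lower 7.14%. The oestrogen-related receptors, which drive genes of oxidative metabolism, gave 1.07 ± 0.28 (Esrra), 1.35 ± 0.37 (Esrrb) and 1.20 ± 0.36 (Esrrg). Ppargc1a, the coactivator of mitochondrial biogenesis, was singled out after its values were seen and gave 1.90 ± 0.59 (edgeR adjusted p = 0.0407). Nrf1, Gabpa and Yy1, whose motifs were searched above, did not pass there (-0.23 ± 0.080, 0.21 ± 0.12 and -0.13 ± 0.077). Between the regions of control hearts, 8 of the 14 fell and 5 rose, where 33.2% of all genes were called lower and 30.7% higher. Esrra fell (-1.61 ± 0.25) and Hif1a, which encodes the HIF-1 subunit that responds to oxygen, rose (0.96 ± 0.21). Hif1a too was named after its values were seen, for its link with Ndufa4l2. The infarct comparisons of the diets share their libraries with the members' tests, and 0 genes of any kind passed without infarct 9172 and 9179.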

How the data were processed

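RNA from remote and infarct tissue was measured by bulk sequencing. The authors deposited 1 table of whole-number counts per gene, a unit read from the values. Kallisto 0.48.0 and build GRCm39 are named in the submitters' processing notes, and how its estimates became counts per gene is not given in the sources used here. Sequences are from RefSeq (GRCm38.p6) and GENCODE M21 (GRCm38), so no GRCm39 position is printed. Each of the 27 columns was matched to a sample by its library name.

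The members, lists, tests and alternatives were chosen with earlier results of these data known. Genes were filtered with filterByExpr, scaled by TMM and tested by quasi-likelihood in edgeR 4.0.16 (R 4.3.3, with limma 3.58.1 and DESeq2 1.42.0 for alternatives). P-values were adjusted over all genes tested by the Benjamini-Hochberg method, with a threshold of 0.05. The script was tested on simulated data. Diets were compared within a region from that region's libraries. The region comparisons and the interaction came from a fit of 27 libraries with 4 group means. Standard errors are the absolute log2 fold change divided by the square root of F. CPM used TMM factors over all libraries. Shares are of all counts on genes, and cover counting error only through their spread between libraries. Both regions of a heart come from 1 mouse, so mouse numbers pair them, and residuals of the 13 pairs correlated at -0.103 to 0.398 (median 0.172). No 2 libraries of a group were duplicates, as chi-square per degree of freedom was at least 9.03 over 79 pairs. Named were all ND genes, nuclear core subunits, Ndufa4, Ndufa4l2, and per comparison the 2 nuclear members with the smallest p, the lowest and the highest fold change. One member that is part of all totals is not reported here by itself. From the lists up to 3 genes with the smallest p were named. Of 150 listed genes 147 were found. Fastkd4, Atp5f1 and Hbb-bs were not. Alternatives were other scalings, no filter, DESeq2, limma-voom, a fit of all libraries, the contractile score as covariate, mouse as block, and leaving out libraries.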

Additional observations from a re-analysis of the deposited data

Results flagged for a closer look

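Among 200 groups of values, 11 had 1 library set apart from the rest by Dixon's ratio, where chance sets apart about 1 in 20. The number is near that rate, and the groups of values are not independent, as they share libraries. 4 of them were the remote library of control mouse 9180, lowest of its group for ND5 (2377 CPM), Ndufa10 (392.9 CPM), Ndufa9 (322.0 CPM) and the contractile share of counts (5.977%). Another 5 were the infarct library of CKD mouse 9179, highest of its group for Ndufs6 (1006 CPM), Ndufb7 (936.0 CPM), Ndufa2 (705.6 CPM), Ndufb9 (700.9 CPM) and Ndufb2 (34.6 CPM). Control mouse 9171 was set apart in both regions, as lowest in remote tissue for ND counts per 100 contractile counts (35) and as highest in infarct tissue for nuclear member counts per 100 contractile counts (38.51). That infarct library also had the lowest contractile share of all, at 0.694%.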

How the results depend on the processing

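For CKD against control in infarct tissue, 0 members and 0 ND genes passed without the infarct libraries of 9172 and 9179, and 0 and 0 with the contractile covariate, where Ndufb2 alone changed sign (-0.21). Leaving out each library gave 0 to 45 members and 0 to 7 ND genes. No other alternative of this comparison moved these counts by over 1.5 times. For the difference of the diet effects DESeq2 called 41 members and 7 ND genes in place of 0. For infarct against remote tissue in CKD mice, leaving out each library gave 13 to 44 members and 2 to 7 ND genes, and 3 ND genes passed without the remote library of 9179. In that comparison the replicate block (mouse) called 43 members in place of 31. In control mice the block called 44, as without it, and for the difference of the effects 0. The shares of all genes called are not given here for these last block fits, the fit without remote 9179 or the contractile covariate. In remote tissue no member was called in any fit, but signs changed. With the contractile covariate 22 of the 45 members changed sign, with log2 fold changes that included -0.040 for ND1, -0.088 for ND2, -0.11 for ND3, -0.16 for ND4, -0.17 for ND4L, -0.080 for ND5, -0.033 for ND6, -0.16 for Ndufb2, -0.13 for Ndufs1 and -0.12 for Ndufv1. Without remote 9180, 5 changed sign, among them ND4 (-0.050), ND4L (-0.055) and Ndufb2 (-0.013). Leaving out each library gave -0.0063 to 0.22 for ND3, -0.050 to 0.14 for ND4, -0.055 to 0.18 for ND4L, -0.041 to 0.12 for Ndufa3, -0.029 to 0.15 for Ndufb1-ps and -0.063 to 0.25 for Ndufb2. For Ndufa4l2 in CKD mice, infarct against remote, it gave -0.076 to 0.090. The log2 ratio of the genomes moved by less than 1 pooled SD under its alternatives. That is a weak limit, as this SD was larger than the difference itself except between the regions of control mice. The difference of CKD from control infarcts was 0.27 (SD 0.29). It ran from 0.18 (without control mouse 9171) to 0.36 (without control mouse 9180). The causes of these changes were not tested. Leaving out libraries lowers the number of samples in a fit. The lowest count of a member in a library was 93, for Ndufb2, and the part of depth was not tested.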
